A study of Mus musculus with 24 samples.

Results

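Replication licensing is the step in which a cell prepares its chromosomes to be copied once. The genes of this step followed here were chosen by name: Mcm2, Mcm3, Mcm4, Mcm5, Mcm6, Mcm7, Mcm10, Cdt1, Cdc6, and Gmnn. All 10 were found among the 23930 amplicons of the table, with 1 amplicon for each gene, and all 10 passed the filter on low values in each comparison. The values were measured in monocytes sorted from mouse spleen, in 2 subsets (Ly6C hi and Ly6C low) and 3 genotypes, with 4 libraries for each of the 6 groups. WT mice were C57BL/6. Slc29a3-/- mice lack the lysosomal nucleoside transporter encoded by Slc29a3 through an inserted stop codon. Slc29a3-/- Tlr7-/- mice carry this allele and in addition a small deletion in Tlr7, which encodes a single-stranded RNA sensor of endosomes. Both alleles were made by CRISPR/Cas9, are carried in every cell of the body, and were studied in untreated mice. The ages of the mice are not given in the labels. Cells of the Ly6C hi sort were CD11b+ and those of the Ly6C low sort CD11b+ Fcgr4+, and both sorts left out cells with Ly6G, SiglecF, or NK1.1. The labels call these cells macrophages, and the study's text calls them monocytes.

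In G1, the origin recognition complex marks the sites where copying can start, and Cdc6 and Cdt1 load the ring of Mcm2 to Mcm7 there. This ring is the core of the helicase that later opens the DNA, and Mcm10 takes part in its activation at the start of S phase. Geminin, the product of Gmnn, binds Cdt1 in S phase and G2 and so keeps origins from being licensed again. The genes of this step are known targets of E2F transcription factors and are low in cells that have left the cell cycle, as most mature monocytes have.

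Promoter sequence was available for 8 of the 10 genes (RefSeq, GRCm38.p6, 250 bases before to 50 bases after each start), and not for Mcm4 and Gmnn. These promoters were searched on both strands for 4 forms of the E2F site, TTTCCCGC, TTTCGCGC, TTTGCCGC, and TTTGGCGC. At least 1 form was found in 6 of the 8, namely Mcm3, Mcm5, Mcm6, Mcm7, Cdt1, and Cdc6, but not in Mcm2 or Mcm10. Of the 27025 genes with a promoter of this length, 2.60% held a match. The 30 bases around each match are given as a description of these promoters, and a link to the comparisons that follow was not tested. Matches are in capitals, the letters run 5′ to 3′ on the strand of the gene, and positions count from 1 at the start site and from -1 before it.
Mcm3: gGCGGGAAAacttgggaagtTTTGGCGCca
Mcm5: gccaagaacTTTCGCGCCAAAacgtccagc
Mcm6: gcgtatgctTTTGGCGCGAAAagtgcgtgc
Mcm6: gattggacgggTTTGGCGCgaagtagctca
Mcm7: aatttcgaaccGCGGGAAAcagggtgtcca
Mcm7: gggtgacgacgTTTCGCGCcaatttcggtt
Cdt1: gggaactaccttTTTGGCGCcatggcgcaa
Cdc6: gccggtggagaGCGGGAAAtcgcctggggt

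The Mcm3 window (chr1:20820265-20820294, minus strand) holds matches at 20 and 39 and lies in the 5′ UTR exon. The Mcm5 window (chr8:75109347-75109376, plus strand) holds a pair of overlapping matches that begin at -153 and -149, and it lies before the gene, in no annotated transcript. Of the Mcm6 windows, the first (chr1:128359795-128359824, minus strand) also holds an overlapping pair, at -110 and -106, and the second (chr1:128359734-128359763) a match at -47, both outside any annotated transcript. The Mcm7 windows (chr5:138172030-138172059 and chr5:138171849-138171878, minus strand) have matches at -165 and 17. Both overlap exons of Mcm7 transcripts in GENCODE vM21, and the first also overlaps an exon of Ap4m1 on the other strand. The Cdt1 window (chr8:122568035-122568064, plus strand) crosses from the 5′ UTR into the coding sequence, with the match at 33. In Cdc6 (chr11:98908002-98908031, plus strand) the match at -138 falls within a longer annotated transcript, in an intron. A match describes the letters only, and no binding was measured here.

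Each library held 12311037 to 14572266 reads as inferred from the even steps of its low values, and the deposited unit was reads per 1000000 reads assigned to amplicons (RPM). A value belongs to 1 amplicon, so levels are compared between libraries and not between genes. The subsets differed in Fcgr4, whose product was used to sort the Ly6C low cells, at 25.97 to 62.5 RPM in the 12 Ly6C hi libraries and 605 to 3017 RPM in the 12 Ly6C low libraries. Ly6c2 was not analysed here. The Slc29a3 and Tlr7 amplicons were read in every group (for Slc29a3, 127 to 173 RPM in Slc29a3-/- and 163 to 225 RPM in WT Ly6C hi monocytes), so they do not check the genotypes, which rest on the labels. WT replicate 4 stood apart from the other WT libraries. In Ly6C hi monocytes, WT replicates 1 to 3 were at most 24.3 log2 units from each other and at least 63.7 from replicate 4 (Euclidean distance over all amplicons tested). WT replicates 1 to 3 of the 2 subsets carried barcodes 11 to 16, where all other libraries of the series carried 24 to 46. WT replicate 4 had the lowest value of the 4 WT Ly6C hi libraries for all 10 licensing genes. Counts or medians of the licensing genes relative to WT are also given without this library and with it alone.

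All 10 genes had their highest mean in Slc29a3-/- Ly6C hi monocytes, and for 8 of the 10 the 4 libraries of this group were above the other 20. How many of all amplicons showed such a separation of groups was not counted, here or in the later comparisons. Called here means a fold change over 1.5 and an adjusted P under 0.05 in limma (Benjamini-Hochberg over all amplicons tested), on log2(RPM + 1). Relative to WT, 9 of the 10 were called higher in Slc29a3-/- Ly6C hi monocytes, against 8.15% of the 10561 amplicons tested. Their median log2 fold change was 1.21, where the median of all amplicons was -0.14. In the 6 subunits of the helicase the log2 fold change ran from 0.75 to 1.45, and the gene that was not called was Cdt1. In bulk samples, more cells that express a gene and more RNA of it per cell cannot be told apart.

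**Figure D1:**
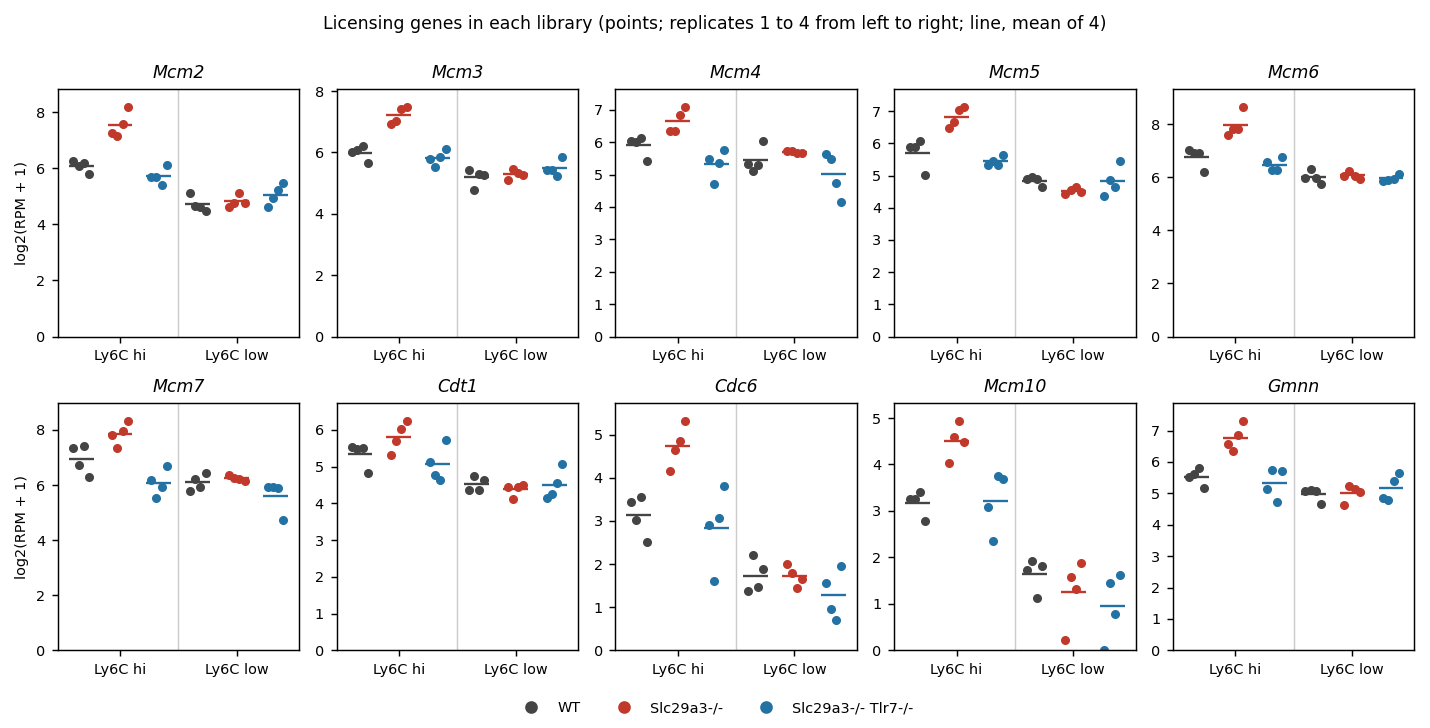
Level of each licensing gene in every library, as log2(RPM + 1), with 4 points per group (replicates 1 to 4 from left to right) and a line at the group mean. The Slc29a3-/- Ly6C hi points, in red, have the highest mean in all 10 panels and lie above every other library in 8 of them, whereas the 3 genotypes of the Ly6C low subset overlap in most panels.

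Mcm2 (gene ID 17216), a subunit that also binds histones, changed most among the 6. Its values in the WT Ly6C hi libraries, replicates 1 to 4, were 75.5, 65.8, 71.4, and 54.1 RPM. In Slc29a3-/- they were 149.9, 139, 188, and 286 RPM, and in Slc29a3-/- Tlr7-/- 50.5, 50.6, 41.2, and 68.1 RPM. The lowest Slc29a3-/- library was above every library of the other genotypes. The log2 fold change relative to WT was 1.45 ± 0.21 (SE, adjusted P = 0.00043, limma) and relative to Slc29a3-/- Tlr7-/- 1.80 ± 0.21 (adjusted P = 0.00013).

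Mcm3 (gene ID 17215) was measured at 64.4, 66.6, 72.9, and 49.8 RPM in WT. The Slc29a3-/- libraries had 120.4, 130.1, 169, and 176 RPM and the Slc29a3-/- Tlr7-/- libraries 54.5, 45.6, 56.4, and 68.3 RPM. The Slc29a3-/- values were again above all others, those of WT and Slc29a3-/- Tlr7-/- overlapped, and the log2 fold change of 1.21 ± 0.17 relative to WT had the smallest SE of the 10 (adjusted P = 0.00032). For Mcm5 (gene ID 17218), WT libraries had 58.3, 57.9, 66.2, and 31.1 RPM, and Slc29a3-/- libraries had 87.5, 99.9, 130.3, and 138 RPM. Those of Slc29a3-/- Tlr7-/- had 39.1, 42.6, 39.2, and 49.2 RPM, all below the lowest Slc29a3-/- value. The increase over WT was 1.11 ± 0.22 on the log2 scale (adjusted P = 0.0023).

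Mcm6 (gene ID 17219) had 129, 119, 120.4, and 71.6 RPM in WT, and replicate 4 was far below the other 3. In Slc29a3-/- it had 192, 223, 226, and 394 RPM and in Slc29a3-/- Tlr7-/- 94.2, 75.5, 76.0, and 107 RPM. Its increase over WT was 1.20 ± 0.23 on the log2 scale (adjusted P = 0.0019), and the Slc29a3-/- values were above all those of WT and Slc29a3-/- Tlr7-/-. 

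Mcm4 and Mcm7, which with Mcm6 form the part of the ring with helicase activity in vitro, rose less relative to WT. Mcm4 (gene ID 17217) was at 64.5, 63.4, 69.7, and 42.0 RPM in WT and at 81.1, 79.5, 114, and 134 RPM in Slc29a3-/-. Slc29a3-/- Tlr7-/- libraries held 43.98, 25.4, 40.3, and 52.7 RPM of it. The WT and Slc29a3-/- values did not overlap, with a log2 difference of 0.75 ± 0.23 (adjusted P = 0.027). Mcm7 (gene ID 17220) was the called gene with overlapping groups. It had 163, 105, 169, and 78.2 RPM in WT and 227, 162, 245, and 317 RPM in Slc29a3-/-, a log2 difference of 0.91 ± 0.28 (adjusted P = 0.026). Its values of 72.4, 44.8, 59.2, and 102 RPM in Slc29a3-/- Tlr7-/- were all below those of Slc29a3-/-. Both genes lost the call without WT replicate 4 (adjusted P = 0.072 for Mcm4 and 0.070 for Mcm7) and also without WT replicate 2, Slc29a3-/- replicate 3, or Slc29a3-/- replicate 4, where the adjusted P was 0.052 to 0.088.

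The pair of helicase loaders differed in size of change. Cdc6 (gene ID 23834), an ATPase, had the largest log2 fold change of the 10 in this comparison. WT libraries had 9.78, 7.15, 10.7, and 4.68 RPM, Slc29a3-/- libraries had 16.9, 24.04, 28.1, and 38.8 RPM, and Slc29a3-/- Tlr7-/- libraries had 6.55, 2.03, 7.37, and 13.1 RPM. The Slc29a3-/- values were above all others, and the log2 fold change was 1.62 ± 0.39 relative to WT (adjusted P = 0.0080). Cdt1 (gene ID 67177) had 45.2, 44.1, 44.2, and 27.3 RPM in WT and 38.8, 50.7, 64.0, and 74.4 RPM in Slc29a3-/-. The first Slc29a3-/- library was below 3 of the 4 WT libraries, and the log2 difference of 0.48 ± 0.26 was not called (adjusted P = 0.18). In Slc29a3-/- Tlr7-/- its values were 34.2, 26.5, 23.8, and 52.4 RPM.

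Mcm10 (gene ID 70024) was at 8.53, 8.60, 9.59, and 5.85 RPM in WT and 15.4, 23.0, 29.5, and 21.4 RPM in Slc29a3-/-. It had 7.47, 4.14, 12.5, and 11.9 RPM in Slc29a3-/- Tlr7-/-. Slc29a3-/- was higher than WT by 1.34 ± 0.29 on the log2 scale (adjusted P = 0.0046), with no overlap. Gmnn (gene ID 57441), the inhibitor of licensing, also rose in Slc29a3-/-. Its WT values were 45.4, 48.0, 54.7, and 35.3 RPM, its Slc29a3-/- values 93.7, 80.7, 114, and 156 RPM, and its Slc29a3-/- Tlr7-/- values 34.6, 53.0, 25.3, and 51.2 RPM. The Slc29a3-/- libraries were above all others, and the log2 fold change over WT was 1.23 ± 0.24 (adjusted P = 0.0025).

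Slc29a3-/- replicate 4 was the highest of all 24 libraries for 9 of the 10 genes, all but Mcm10. With any 1 library left out, 7 to 9 of the 10 were called higher than in WT, and the median log2 fold change was at least 1.03. Without WT replicate 4 alone, 7 were called with a median of 1.06. Against WT replicate 4 alone, 4 were called (Mcm2, Mcm3, Mcm5, and Mcm6), with a median of 1.66, where 1.26% of all amplicons were called higher. In that fit the spread of the lone library was taken from the other groups.

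Relative to WT, none of the 10 genes was called in Slc29a3-/- Tlr7-/- Ly6C hi monocytes (limma), and 1.42% of all amplicons were called in either direction. Of the 10, 9 had a log2 fold change below 0, the median was -0.28, and 2 had an unadjusted P under 0.05. These were Mcm7 (log2 fold change -0.87 ± 0.28, adjusted P = 0.096) and Mcm4 (-0.57 ± 0.23, adjusted P = 0.16). With unadjusted P and the fold threshold, 1 of the 10 passed, where 329 of 10561 amplicons were higher and 997 lower. These counts are therefore not read as particular to the licensing genes. Without WT replicate 4 the median was -0.47. In that fit 1 of the 10 was called, but the share of all amplicons is not given here, so this count is not interpreted. With WT represented by replicate 4 alone, the median was 0.20, so the direction relative to WT rested on the choice of WT libraries.

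The mutants, which differ in the Tlr7 allele, were then compared in Ly6C hi monocytes without use of a WT library. It shares the Slc29a3-/- libraries with the comparison with WT. Again 9 of the 10 genes were called higher in Slc29a3-/-, against 9.00% of all amplicons, with a median log2 fold change of 1.41 (-0.12 over all amplicons). For all 9 the groups did not overlap. Cdc6, at 1.90 ± 0.39 (adjusted P = 0.0040), Mcm2, and Mcm7, at 1.78 ± 0.28 (adjusted P = 0.00064), had the largest differences. Mcm6 (adjusted P = 0.00049) came next, Gmnn differed by 1.43 ± 0.24, Mcm3 by 1.39 ± 0.17, Mcm5 by 1.38 ± 0.22, Mcm4 by 1.32 ± 0.23, and Mcm10 by 1.29 ± 0.29 (adjusted P from 0.00014 to 0.0071). Cdt1 was just outside the threshold, at 0.74 ± 0.26 (adjusted P = 0.053), and was called in a fit of all 24 libraries (0.033) and after trimmed-mean scaling of the libraries (0.038). With any 1 library left out, 9 or 10 genes were called.

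**Figure D2:**
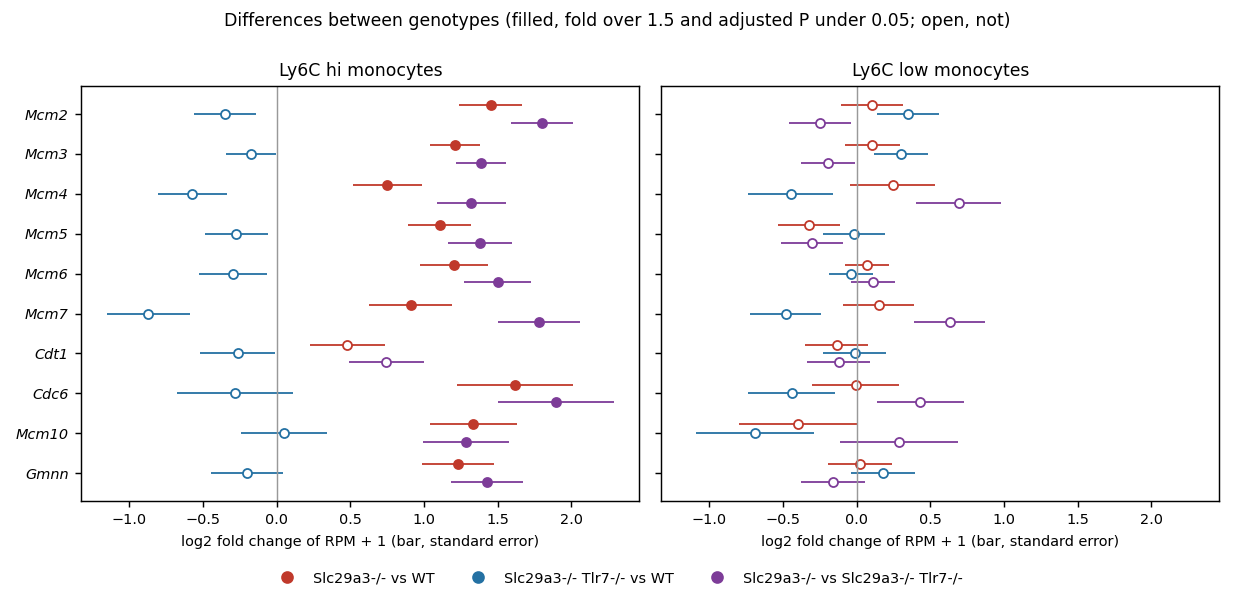
Log2 fold change of RPM + 1 between genotypes for each licensing gene, with standard error bars, in Ly6C hi (left) and Ly6C low (right) monocytes. Filled points passed the thresholds. In Ly6C hi monocytes, 9 of 10 are filled in both comparisons that involve Slc29a3-/- alone, and no point is filled in Ly6C low monocytes.

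Transcripts listed as markers of other cell types also differed between these groups. Those of neutrophils and progenitors summed highest in Slc29a3-/-, the group with the highest licensing genes. In bulk samples, marker transcripts cannot be assigned to other cells or to the sorted monocytes themselves. Of 13 neutrophil genes, 8 were called higher and 2 lower in Slc29a3-/- than in WT Ly6C hi monocytes, and of 10 genes of granulocyte-monocyte progenitors, 7 were called higher. Of all amplicons, 8.15% were called higher and 14.3% lower. Without WT replicate 4, 7 neutrophil and 7 progenitor genes were called higher. The neutrophil genes summed to 14101 to 21907 RPM in the WT libraries, 43080 to 82675 RPM in Slc29a3-/-, and 6420 to 21947 RPM in Slc29a3-/- Tlr7-/-. The sums of the progenitor genes were 780.1 to 914, 1874 to 4513, and 762 to 1415 RPM in the same order, and no gene of either list was at 0 in all 4 libraries of a Ly6C hi group. Elane, which encodes neutrophil elastase and is made in promyelocytes, ranged from 79.1 to 102 RPM among WT libraries and from 225 to 734 RPM among Slc29a3-/- ones, and Ly6g, whose product was gated out, at 17.9 to 33.5 and 59.2 to 139 RPM. The library with the highest sum of both lists, Slc29a3-/- replicate 4, was the one with the highest values of 9 licensing genes. All 8 tested genes of conventional and all 6 of plasmacytoid dendritic cells were called lower in Slc29a3-/-, as were all 7 of NK cells, 6 of 6 of T cells, 1 of 1 B cell, 2 of 4 erythroid, and 2 of 7 red pulp macrophage genes. Of the 5 Ly6C hi monocyte genes tested, none was called (limma, median log2 fold change -0.26), and of 10 Ly6C low monocyte genes, 3 were called higher and 1 lower. Cd3e, a subunit of the T cell receptor complex, ranged from 0.872 to 4.35 RPM among Slc29a3-/- libraries and from 6.24 to 44.5 RPM among WT ones. Among Slc29a3-/- Tlr7-/- libraries it ranged from 0 to 11.1 RPM. The median sums of the T cell genes were 181 (WT), 10.9 (Slc29a3-/-), and 24.8 RPM (Slc29a3-/- Tlr7-/-). Those of the NK cell genes were 484, 27.7, and 62.1 RPM, so both lists had lower medians in both mutants than in WT.

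When the mean of the neutrophil list was added to the fit as a covariate, 6 of the 10 licensing genes were called higher in Slc29a3-/- than in WT (median 0.85), with Mcm4, Mcm7, and Cdc6 lost, and 5.91% of all amplicons were. With the mean of the progenitor list, 0 were called (median 0.38), and Mcm4 and Mcm7 had log2 fold changes of -0.15 and -0.22. That fit left 1 of all 10561 amplicons called higher and 2 lower, so its 0 is not particular to the licensing genes. In the comparison with Slc29a3-/- Tlr7-/-, where 10 neutrophil and 8 progenitor genes were called higher, either covariate left 0 called, with medians of 0.61 (neutrophil) and 0.83 (progenitor). Of all amplicons, 1 was called higher and 55 lower with the first covariate and 0 with the second. The part of these other transcripts in the difference of the licensing genes was not tested.

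Cdt1 and Gmnn act against each other, and their ratio within a library was examined after their values had been seen, so it is given without a test. The ratio of Cdt1 to Gmnn depends on both amplicons and is compared only between libraries. It was 0.997, 0.918, 0.808, and 0.773 in WT Ly6C hi libraries and 0.415, 0.628, 0.562, and 0.477 in Slc29a3-/- ones, so that every Slc29a3-/- library was below every WT library. In Slc29a3-/- Tlr7-/- it was 0.989, 0.499, 0.941, and 1.02, and replicate 2 was thus within the range of Slc29a3-/-. In Ly6C low monocytes the ratio was 0.451 to 0.981 over the 12 libraries, and the 3 genotypes overlapped.

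Mcm4 and Mcm7 also moved apart from the other 4 subunits, which again was noticed in the values and is not tested. Across the 24 libraries the pattern of each of the pair was nearest, among the 10 genes, to that of the other (mean absolute difference of centred log2 values 0.29). Their geometric mean divided by that of Mcm2, Mcm3, Mcm5, and Mcm6 was 1.10 to 1.35 in WT Ly6C hi libraries, 0.799 to 1.03 in Slc29a3-/- ones, and 0.646 to 1.04 in Slc29a3-/- Tlr7-/- ones, so that both mutants were below every WT library. In Ly6C low monocytes it was 1.60 to 2.05 in Slc29a3-/- and 1.17, 1.42, 1.37, and 2.38 in WT. It varied most in Slc29a3-/- Tlr7-/- Ly6C low libraries, at 1.67, 1.35, 1.04, and 0.403. In the last of these, Mcm4 was at 16.8 RPM and Mcm7 at 25.9 RPM, the lowest of all 24 libraries for both, while Mcm2 and Mcm5 were both at 42.9 RPM, the highest of the 12 Ly6C low libraries.

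**Figure D3:**
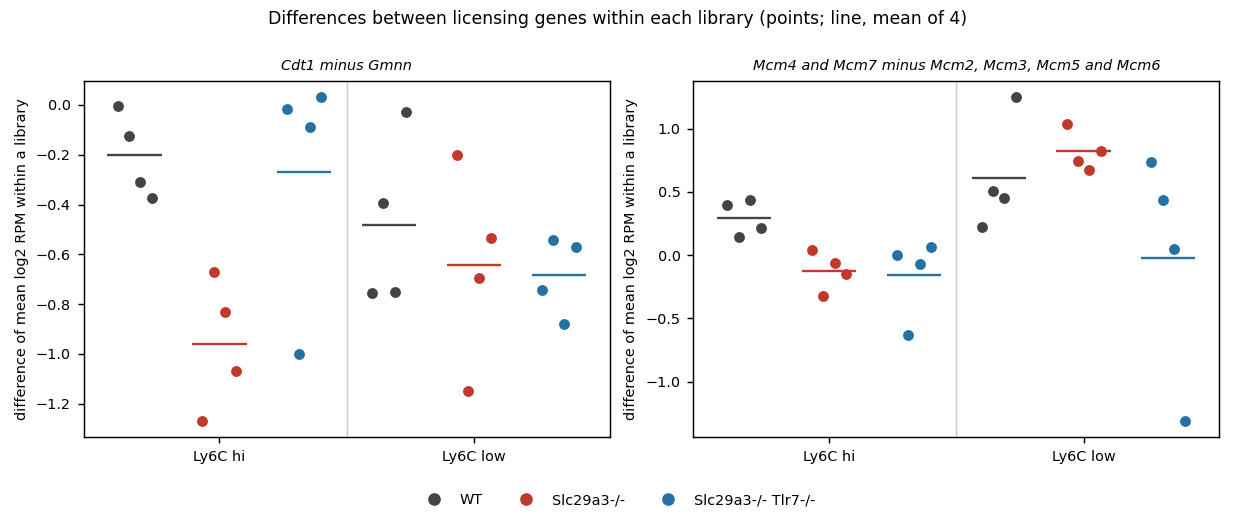
Difference of log2 RPM within each library between Cdt1 and Gmnn (left) and between the mean of Mcm4 and Mcm7 and the mean of the other 4 helicase subunits (right), with 4 points per group and a line at the mean. The 4 Slc29a3-/- Ly6C hi libraries lie below the 4 WT ones in both panels, the 4 Slc29a3-/- Tlr7-/- ones do so on the right, and 1 Slc29a3-/- Tlr7-/- Ly6C low library lies far below its group on the right.

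In Ly6C low monocytes none of the 10 genes was called in any comparison of genotypes. The share of all amplicons called in either direction was 4.43% for Slc29a3-/- relative to WT, 8.31% for Slc29a3-/- Tlr7-/- relative to WT, and 1.93% between the mutants. The median log2 fold changes of the 10 were 0.05, -0.03, and 0.00 in that order. The count with an unadjusted P under 0.05 was 0, 0, and 2. With unadjusted P and the fold threshold, 1113 of 10317 amplicons were higher and 301 lower between the mutants, and 2 of the 10 genes passed. The count of 2 is therefore not read as particular to the licensing genes. Without WT replicate 4 the medians relative to WT were 0.01 and -0.11, with 0 genes called, and with it alone they were -0.13 and 0.03. For Mcm2, the Ly6C low values were 33.5, 24.4, 23.2, and 21.3 RPM for WT, 23.5, 26.2, 33.8, and 26.1 RPM for Slc29a3-/-, and 23.7, 29.6, 36.3, and 42.9 RPM for Slc29a3-/- Tlr7-/-. The 3 genotypes overlapped, and Slc29a3-/- differed from WT by a log2 fold change of 0.10 ± 0.21 (adjusted P = 0.84). The same difference was 0.11 ± 0.18 for Mcm3, 0.07 ± 0.15 for Mcm6, and 0.02 ± 0.22 for Gmnn, each with overlapping groups. Mcm5 had 28.7, 30.2, 28.5, and 23.8 RPM in WT and 20.3, 22.4, 24.1, and 21.4 RPM in Slc29a3-/- (-0.32 ± 0.21, adjusted P = 0.43).

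The 2 genes with an unadjusted P under 0.05 between the mutants were Mcm4 and Mcm7. Mcm4 had 51.8, 51.5, 50.2, and 49.97 RPM in Slc29a3-/- and 49.0, 44.1, 25.5, and 16.8 RPM in Slc29a3-/- Tlr7-/- (log2 difference 0.69 ± 0.29, adjusted P = 0.22). Mcm7 had 82.4, 74.6, 73.6, and 70.4 RPM and 59.4, 59.6, 58.2, and 25.9 RPM (0.63 ± 0.24, adjusted P = 0.20). Neither pair of groups overlapped, and neither passed the adjustment. WT replicate 4 had the highest WT values of both, at 65.0 RPM of Mcm4 and 86.4 RPM of Mcm7. Cdc6 and Mcm10 were near the lower limit in this subset, at 0.631 to 3.64 RPM and 0 to 2.81 RPM. Mcm10 was at 0 in replicate 1 of Slc29a3-/- Tlr7-/-, which allows up to 0.242 RPM (3 reads, counting error only).

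All 10 licensing genes had a positive log2 fold change for Ly6C hi relative to Ly6C low monocytes in each genotype. The gap was widest in Slc29a3-/-, and most of the genes were not called in Slc29a3-/- Tlr7-/-. In WT, 8 of the 10 genes were called higher in Ly6C hi, against 17.5% of the 11042 amplicons tested, with a median log2 fold change of 0.83 (0.07 over all amplicons). Mcm10 (1.52 ± 0.37, adjusted P = 0.0024) and Cdc6 (1.39 ± 0.37, adjusted P = 0.0049) had the largest differences, followed by Mcm2 (1.36 ± 0.22, adjusted P = 2.4e-05). Mcm4 (0.45 ± 0.28, adjusted P = 0.24) and Gmnn (0.55 ± 0.24, adjusted P = 0.090) were not called, although the Gmnn groups did not overlap. With the replicate number as a block, 7 were called, since Mcm7 no longer passed (adjusted P = 0.063). Without WT replicate 4 of either subset 8 were called. With replicate 4 alone the median fell to 0.43, and Mcm4 (-0.62) and Mcm7 (-0.14) were below 0, while the other genes were above it. The difference in WT thus rested largely on replicates 1 to 3.

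In Slc29a3-/-, all 10 genes were called higher in Ly6C hi than in Ly6C low monocytes, against 16.5% of all amplicons, with no overlap for any gene and a median of 1.91. Mcm10 differed by 3.26 ± 0.37, Cdc6 by 3.02 ± 0.37, Mcm2 by 2.71 ± 0.22, and Mcm5 by 2.30 ± 0.22 (adjusted P from 2.1e-10 to 2.5e-07). Mcm4 had the smallest difference, 0.96 ± 0.28 (adjusted P = 0.0072). In Slc29a3-/- Tlr7-/-, 4 were called, against 18.7% of all amplicons, and the median was 0.54. These were Mcm10 (2.26 ± 0.37), Cdc6 (1.55 ± 0.37), Mcm2 (0.66 ± 0.22), and Mcm5 (0.61 ± 0.22). Only Mcm10 and Mcm6 had groups that did not overlap, and Mcm6, at 0.51 ± 0.20, was not called (adjusted P = 0.051). Neutrophil and progenitor genes moved with the subsets as well. Of the 13 and 10, 11 and 9 were called higher in Ly6C hi monocytes of WT, 12 and 9 of Slc29a3-/- (median log2 fold changes 6.23 and 6.10), and 11 and 8 of Slc29a3-/- Tlr7-/-, and their part in the subset differences of the licensing genes was not tested. The count of licensing genes called in Slc29a3-/- Tlr7-/- was 2 without Ly6C hi replicate 4 and 2 without Ly6C low replicate 1 of this genotype, and 2 after trimmed-mean scaling, which lost Mcm2 and Mcm5. After that scaling 1752 of all amplicons were called higher, against 2063 in the main fit. A count of 2 of 10 is near the share of all amplicons.

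**Figure D4:**
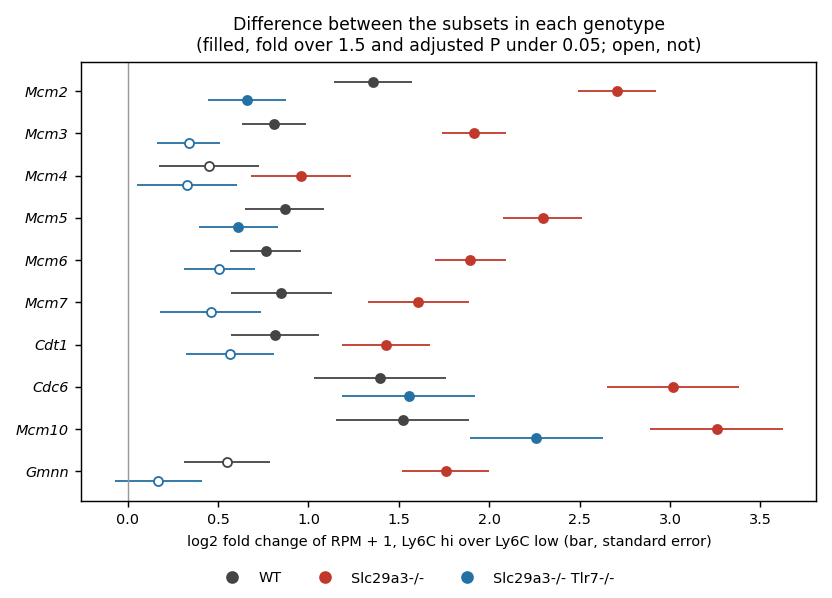
Log2 fold change of RPM + 1 between Ly6C hi and Ly6C low monocytes for each licensing gene in the 3 genotypes, with standard error bars and filled points where the thresholds were passed. The Slc29a3-/- point lies farthest to the right for all 10 genes, and all 10 are filled, against 8 in WT and 4 in Slc29a3-/- Tlr7-/-.

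The difference between the subsets in the effect of genotype was tested as an interaction. For Slc29a3-/- relative to WT, 7 of the 10 genes had a larger increase in Ly6C hi than in Ly6C low monocytes, against 4.11% of all amplicons. They were Mcm2 (difference of log2 fold changes 1.35 ± 0.30), Mcm3 (1.11 ± 0.25), Mcm5 (1.43 ± 0.31), Mcm6 (1.13 ± 0.28), Cdc6 (1.62 ± 0.52), Mcm10 (1.74 ± 0.52), and Gmnn (1.21 ± 0.34), with adjusted P from 0.0039 to 0.050. Mcm4 (0.51 ± 0.39), Mcm7 (0.76 ± 0.39), and Cdt1 (0.61 ± 0.34) did not pass. The count fell to 4 without Ly6C hi WT replicate 4, without Slc29a3-/- Ly6C hi replicate 3 or 4, without Ly6C low WT replicate 2, or without Slc29a3-/- Ly6C low replicate 1, and to 0 with replicate 4 alone, where 0.157% of all amplicons passed. It was 5 without Ly6C low WT replicate 4. For Slc29a3-/- relative to Slc29a3-/- Tlr7-/-, 5 of the 10 passed, against 4.53% of all amplicons. These were Mcm2 (2.05 ± 0.30), Mcm5 (1.68 ± 0.31), Gmnn (1.59 ± 0.34), Mcm3 (1.58 ± 0.25), and Mcm6 (1.39 ± 0.28), with adjusted P from 0.00033 to 0.0045. Mcm7 (1.15 ± 0.39, adjusted P = 0.068) and Cdc6 (1.46 ± 0.52, adjusted P = 0.077) were just outside, and 8 passed without Slc29a3-/- Tlr7-/- Ly6C hi replicate 4. In the same test, 10 of 13 neutrophil and 9 of 10 progenitor genes passed for Slc29a3-/- relative to WT, and 6 and 2 relative to Slc29a3-/- Tlr7-/-, and their part in this result was not tested either.

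Other replication genes were read from lists of 59 genes, of which 58 were in the table. Of the 54 tested in Ly6C hi monocytes, 21 were called higher and 0 lower in Slc29a3-/- than in WT, and 32 higher and 0 lower in Slc29a3-/- than in Slc29a3-/- Tlr7-/-. The shares of all amplicons called higher were 8.15% and 9.00%. Without WT replicate 4, 18 were called higher than in WT. Upstream of licensing, 2 of 6 genes of the origin recognition complex were called higher than in WT. Orc1, its largest subunit, was at 3.41 ± 1.32 RPM in Slc29a3-/- and 0.852 ± 0.199 RPM in WT (SD, n = 4 each; log2 fold change 1.21 ± 0.31, adjusted P = 0.011, limma), and Orc6 at 11.9 ± 3.95 and 5.84 ± 1.504 RPM (0.89 ± 0.28, adjusted P = 0.031). The median log2 fold change of this complex was 0.25, against 1.16 for Mcm2 to Mcm7.

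Downstream of licensing, 5 of the 11 origin firing factors tested were called higher than in WT. Cdc7, the kinase that acts on the loaded Mcm ring, rose from 19.9 ± 4.08 to 57.9 ± 15.8 RPM (1.48 ± 0.20, adjusted P = 0.00028), and Cdc45, which joins the ring in the active helicase, from 12.3 ± 1.29 to 36.4 ± 13.9 RPM (1.42 ± 0.27, adjusted P = 0.0020). Of 22 genes of the polymerases, clamp loader, and fork, 12 were called higher. Clspn, an adaptor of the fork checkpoint, rose by 1.74 ± 0.32 and Lig1, the ligase of Okazaki fragments, by 1.70 ± 0.22 on the log2 scale. Of the 11 genes that turn over Cdt1 and Cdc6, 2 were called higher. Dtl, which directs Cdt1 to degradation in S phase, rose from 7.02 ± 1.29 to 33.4 ± 8.82 RPM (2.08 ± 0.24, adjusted P = 0.00013), and Ccnf, the F-box protein cyclin F, from 22.1 ± 3.95 to 85.4 ± 20.3 RPM (1.89 ± 0.19, adjusted P = 6.3e-05). None of the 4 tested relatives or binding partners of the Mcm ring was called in limma (median -0.06).

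Relative to Slc29a3-/- Tlr7-/- Ly6C hi monocytes, the counts were 2 of 6, 8 of 11, 19 of 22, 3 of 11, and 0 of 4 in the same order. Ticrr, which helps Cdc45 onto the ring, had the largest change among the firing factors (2.13 ± 0.34, adjusted P = 0.00075), and Prim1, the primase subunit, among the fork genes (1.75 ± 0.31, adjusted P = 0.0013). Cdc20, an activator of the anaphase-promoting complex, rose by 1.83 ± 0.40 (adjusted P = 0.0058). In Ly6C low monocytes, 0 of the 51 tested were called between Slc29a3-/- and WT (limma), 1 higher and 3 lower between Slc29a3-/- Tlr7-/- and WT, and 1 higher between the mutants, where 4.43%, 8.31%, and 1.93% of all amplicons were called in either direction.

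**Figure D5:**
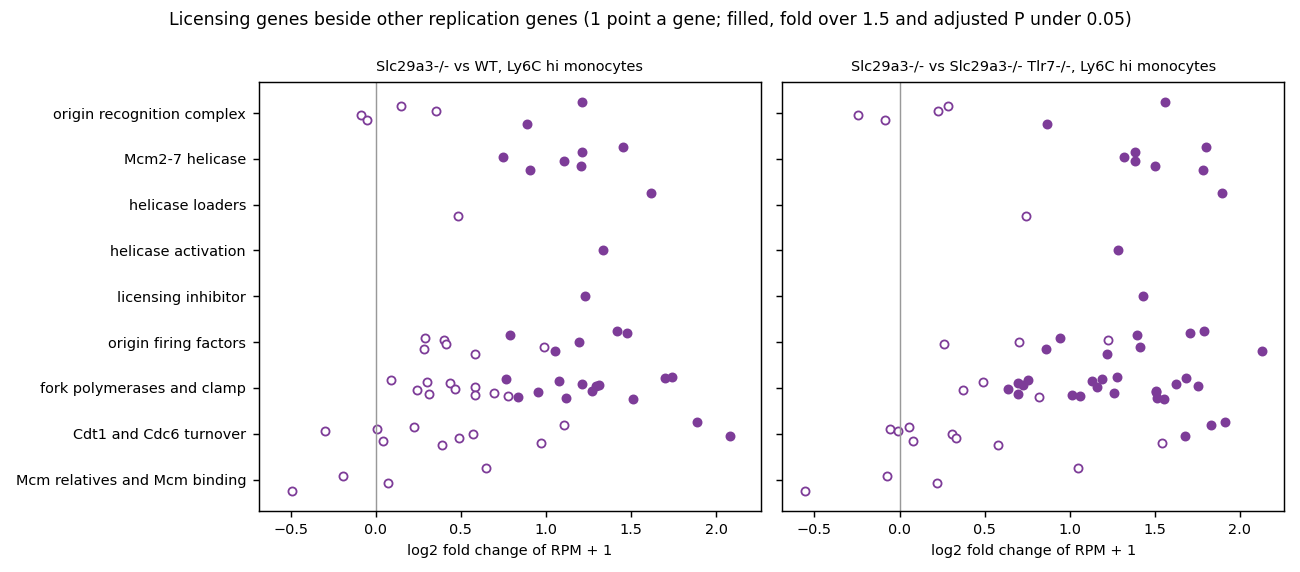
Log2 fold change of RPM + 1 in Ly6C hi monocytes for each gene of the licensing groups and of 5 lists of other replication genes, relative to WT (left) and to Slc29a3-/- Tlr7-/- (right), with 1 point per gene and filled points where the thresholds were passed. All 6 helicase subunits are filled on both sides, whereas 2 of 6 genes of the origin recognition complex are.

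Among the licensing genes, Mcm6 was nearest to the mean pattern of the other 9 over the 24 libraries (mean absolute difference of centred log2 values 0.16), and Mcm10 farthest (0.61). Of the 7484 other genes with a mean of at least 10 RPM, those nearest to the mean pattern of the 10 were Gbe1 (0.18), H2afv (0.18), Smc4 (0.18), Ero1l (0.19), and Cdk2 (0.19). Among Ly6C hi libraries, for example, Smc4 averaged 124 ± 21.5 (WT), 257 ± 55.6 (Slc29a3-/-), and 101 ± 34.2 RPM (Slc29a3-/- Tlr7-/-), and in the same order among Ly6C low libraries 56.8 ± 5.33, 74.7 ± 3.67, and 67.9 ± 11.02 RPM (SD, n = 4 each). All libraries share their scaling to 1000000 reads, and the likeness is a description without a test.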

How the data were processed

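RNA of sorted spleen monocytes (24 libraries, 6 groups of 4) was sequenced by the authors as Ion AmpliSeq Transcriptome Mouse libraries, in which 1 amplicon stands for a gene. The deposited table gives reads per 1000000 reads assigned to amplicons (RPM), with 0 written as 0.0001 and mm10 as the build per the labels. Which step of the authors' pipeline wrote it is not given in the sources used here. The table holds no counts, so no count model was run. Ages and which libraries came from 1 mouse are not given, and P values measure the spread between these libraries.

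Values under 5 RPM were whole multiples of a step within 0.1 read in 100% of cases, which gave 12311037 to 14572266 reads per library and a floor of 3 reads (0.206 to 0.244 RPM, counting error only). Amplicons with at least 1 RPM in at least 4 libraries were tested with limma 3.58.1 (R 4.3.3, intensity trend) on log2(RPM + 1). Fold changes on this scale understate those of low genes. The 12 libraries of a subset were fitted together for the comparison of genotypes and all 24 for subsets and interactions. Alternatives were other scaling of the libraries, other filters and pseudocounts, no trend, other sets of libraries in the fit, a replicate block, a neutrophil or progenitor covariate, unadjusted P values, and each library left out in turn. The counts of other replication, neutrophil, and progenitor genes without WT replicate 4 were added after seeing the data. Tables were made with pandas 2.3.3 and numpy 2.4.6 (Python 3.11.15) and figures with matplotlib 3.10.9. On simulated libraries for Slc29a3-/- relative to WT Ly6C hi monocytes (10634 amplicons), 95% of 2-fold and 53% of 1.5-fold changes were recovered, with 11 false calls. A true 1.5-fold change lies at the cutoff itself. Only genes with at least 10 RPM were changed, and the spread was set and not taken from the licensing genes. The shares recovered therefore do not give the power for the licensing genes.

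All 10 genes are named. Of each list of other replication genes, the 2 called genes with the largest absolute log2 fold change were named in the Ly6C hi comparisons, and the 5 genes nearest in pattern. The genes, lists, tests, and alternatives were chosen with earlier results of these data known. Pcna, Ly6c1, Ly6c2, Chil3, Hba-a1, Hba-a2, Hbb-bs, Hbb-bt, Cd79a, and Trac were not analysed here.

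Replicate numbers were checked for pairing by the correlation of same-numbered deviations from the group means. It was 0.26 to 0.62 in all 4 pairs of WT subsets. The WT group means include replicate 4, which stood apart in both subsets, so this does not show that same-numbered libraries came from 1 mouse. In the other pairings, the correlation was -0.46 to 0.34, and at least 1 pair was under 0.1. The main fits had no replicate block, which was fitted as an alternative in every comparison.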

Additional observations from a re-analysis of the deposited data

Results flagged for a closer look

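In 5 of the 60 groups of 4 libraries, 1 library lay far from the other 3 (gap to the nearest over the range, on log2(RPM + 1)), where chance gives about 1 in 20. In WT Ly6C hi replicate 4, Mcm6 was at 71.6 RPM where the others had 119 to 129, and Cdt1 at 27.3 RPM where the others had 44.1 to 45.2. Gmnn was at 24.2 RPM in WT Ly6C low replicate 4 (others 32.8 to 33.8). Mcm7 was at 25.9 RPM in Slc29a3-/- Tlr7-/- Ly6C low replicate 4 (others 58.2 to 59.6), and Cdt1 at 16.4 RPM in Slc29a3-/- Ly6C low replicate 2 (others 20.8 to 21.8).

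By the interaction test in limma, the effect of genotype differed between Ly6C hi and Ly6C low monocytes for the genes named here. Of all amplicons, 4.11% passed as higher relative to WT and 4.53% between the mutants. The count relative to WT fell from 7 to 4 without a filter or without any of several single libraries. Cdc6 (adjusted P = 0.050) lost the call relative to WT with a pseudocount of 0.1 or with no trend. For Slc29a3-/- relative to WT the difference of log2 fold changes was 1.35 for Mcm2, 1.11 for Mcm3, 1.43 for Mcm5, 1.13 for Mcm6, 1.62 for Cdc6, 1.74 for Mcm10, and 1.21 for Gmnn. For Slc29a3-/- relative to Slc29a3-/- Tlr7-/- it was 2.05 for Mcm2, 1.58 for Mcm3, 1.68 for Mcm5, 1.39 for Mcm6, and 1.59 for Gmnn.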

How the results depend on the processing

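Of 310 recomputed counts of called genes, 288 stayed within 1.5 times the reported count. Counts of 0 that stayed 0 are among these, as are fits that left out a library outside the groups compared. With any 1 library left out, the counts were 7 to 9 for Slc29a3-/- relative to WT, 0 to 1 for Slc29a3-/- Tlr7-/- relative to WT, and 9 to 10 between the mutants in Ly6C hi monocytes; 0 in each Ly6C low comparison; 7 to 8, 10, and 2 to 5 for Ly6C hi relative to Ly6C low in WT, Slc29a3-/-, and Slc29a3-/- Tlr7-/-; and 4 to 7 and 5 to 8 for the interactions. With WT represented by replicate 4 alone, the median log2 fold change was 1.66 for Slc29a3-/- relative to WT in Ly6C hi monocytes. It was 0.43 for Ly6C hi relative to Ly6C low in WT, where Mcm4 was at -0.62 and Mcm7 at -0.14, and 1.54 for the interaction with WT. The progenitor covariate gave 0 for Slc29a3-/- relative to WT in Ly6C hi monocytes, with Mcm4 at -0.15 and Mcm7 at -0.22, and 0 between the mutants, as did the neutrophil covariate. With unadjusted P values, 1 (Slc29a3-/- Tlr7-/- relative to WT, Ly6C hi), 2 (between the mutants, Ly6C low), and 8 (interaction between the mutants) were called. In the same order, 329 of 10561, 1113 of 10317, and 891 of 11042 amplicons were called higher, and 997, 301, and 1607 lower. For Ly6C hi relative to Ly6C low in Slc29a3-/- Tlr7-/-, trimmed-mean scaling, median-of-ratios scaling, and a mean of at least 10 RPM (which removes Cdc6 and Mcm10) each gave 2. After the scalings, 1752 and 1759 of all amplicons were called higher. Without a filter the interaction with WT gave 4. The replicate block changed no count but that in WT between subsets (7). Trimmed-mean scaling moved the median of all amplicons in Slc29a3-/- relative to WT Ly6C hi monocytes from -0.14 to -0.01 and the share of higher calls from 36.4% to 51.6%, while the licensing genes called stayed 9. The cause of these changes was not tested. Cdc6 and Mcm10 in Ly6C low monocytes are limited by depth.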
